A study of Saccharomyces cerevisiae with 9 samples.

Results

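The genes described here encode the chaperones and the ATP-dependent protease of the yeast mitochondrial matrix, namely HSP60, HSP10, SSC1, ECM10, SSQ1, MDJ1, MGE1, HSP78 and PIM1. They were taken by gene symbol and systematic name, and each had 1 probe, so that 9 of the 6256 probes on the array were members. RNA of 3 diploid Saccharomyces cerevisiae strains was hybridised to 1-colour Agilent arrays, with 3 arrays per strain. Sun049T-Z is the thermotolerant xylose-utilizing parental strain (HO/Δho::loxP-Sh Ble-loxP). Sun224T-K is the acid-tolerant parental strain (HO/Δho::loxP-KanMX-loxP). Hyb-8 is the hybrid strain, which is 1 isolate selected after UV mutagenesis, sporulation and mating of the parental strains. All strains carried XYL1 and XYL2 of Scheffersomyces stipitis together with XKS1 and a clonNAT resistance marker. After preculture at 30°C, cells were set at 50 g wet cells/L and sampled 3 h into the fermentation of 50 g/L xylose at 38°C, in medium with acetic acid at 20 mM plus formic acid at 15 mM. There was no culture without stress on the arrays, so each value compares strains under the same stress. Separate fermentations per array were not stated, and p-values therefore measure only the spread between these arrays, which may be technical.

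Most proteins of the matrix are made in the cytosol and cross both membranes unfolded. Ssc1, the main matrix Hsp70, pulls them in with its nucleotide exchange factor Mge1 and, with the J-protein Mdj1, helps them fold, while the chaperonin of Hsp60 and its lid Hsp10 encloses folding proteins. Hsp78, a relative of cytosolic Hsp104, recovers aggregated proteins, and the Lon protease Pim1 degrades those that stay misfolded. Ssq1 is an Hsp70 specialised in iron-sulfur cluster transfer, and Ecm10 is a close relative of Ssc1. Several of these genes are known targets of the heat shock transcription factor.

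The level of a gene was its log2 intensity minus the 75th percentile of the array, so 0 is the intensity at that percentile and a difference of 1 is 2-fold. The 9 members were well above background on all 9 arrays, and none of their spots was saturated. The intensity at the 75th percentile lay between 1044 and 4830, and the share of spots well above background between 90.2% and 96.5%. Sun049T-Z replicate 1 stood apart, with the lowest intensity and with a median SD among the 7 spots per probe of 0.32, against at most 0.067 on the other arrays. It lay alone on slide 1 and Hyb-8 replicate 2 lay alone on slide 4, whereas slides 2 and 3 held all 3 strains. Where slide is a fixed block below, both of these lone arrays therefore carry no weight in the strain differences. The labels of Sun224T-K and Hyb-8 name PHO13 as deleted, but its level was -1.56 ± 0.31 (SD, n = 3) and -1.72 ± 0.02 on arrays with these labels and -3.78 ± 0.10 on those labelled Sun049T-Z. The strain names below are those of the labels. Strains were compared in 1 limma fit over all 9 arrays, with Benjamini-Hochberg adjustment over the 5947 probes tested. A gene passed at an adjusted p under 0.05, and it was called where the difference was also at least 2-fold. The 3 comparisons share arrays, so the values of a gene in them are not independent.

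Of the 9 members, 8 passed as lower in Hyb-8 than in Sun049T-Z, and SSQ1 was also below 0 (-0.16) but did not pass. In Sun224T-K, 8 passed as lower than in Sun049T-Z (all but MGE1). None was separated by the test between Hyb-8 and Sun224T-K. In Hyb-8 relative to Sun049T-Z no member rose, where 27.3% of all probes tested passed as lower and 28.7% as higher. The median log2 difference of the members was -0.82, against 0.03 over all probes. HSP10, MDJ1 and HSP78 were called 2-fold lower, a call that 9.1% of all probes met. The 3 Hyb-8 arrays lay below the 3 Sun049T-Z arrays for 8 members, as for 31.6% of all probes. SSQ1 was the member that neither passed nor separated.

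In Sun224T-K, too, 8 of the 9 members fell relative to Sun049T-Z, where 29.1% of all probes passed as lower and 29.1% as higher. The median of the members was -0.68, against 0.00 over all probes. ECM10, MDJ1 and HSP78 were called 2-fold lower, as were 10.7% of all probes. For 8 members every Sun224T-K array lay below every Sun049T-Z array, which held for 32.8% of all probes. Here the exception was MGE1.

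Between Hyb-8 and Sun224T-K no member passed in limma, where 3.03% of all probes passed as higher, 2.46% as lower and 0.387% were called 2-fold lower. At an unadjusted p under 0.05 there were 4 members, HSP60, SSC1 and MGE1 on the lower side and ECM10 on the higher, and 22.7% of all probes met this threshold in either direction. The median of the members was 0.01, as it was over all probes. The Hyb-8 arrays lay below those of Sun224T-K for HSP60, HSP10, SSC1 and MGE1, as for 14.9% of all probes, and above them for ECM10, as for 15.5%. Hyb-8 thus had a mean below both parental strains for HSP60, HSP10, SSC1 and MGE1, and a mean between the parental strains for the other 5 members.

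**Figure D1:**
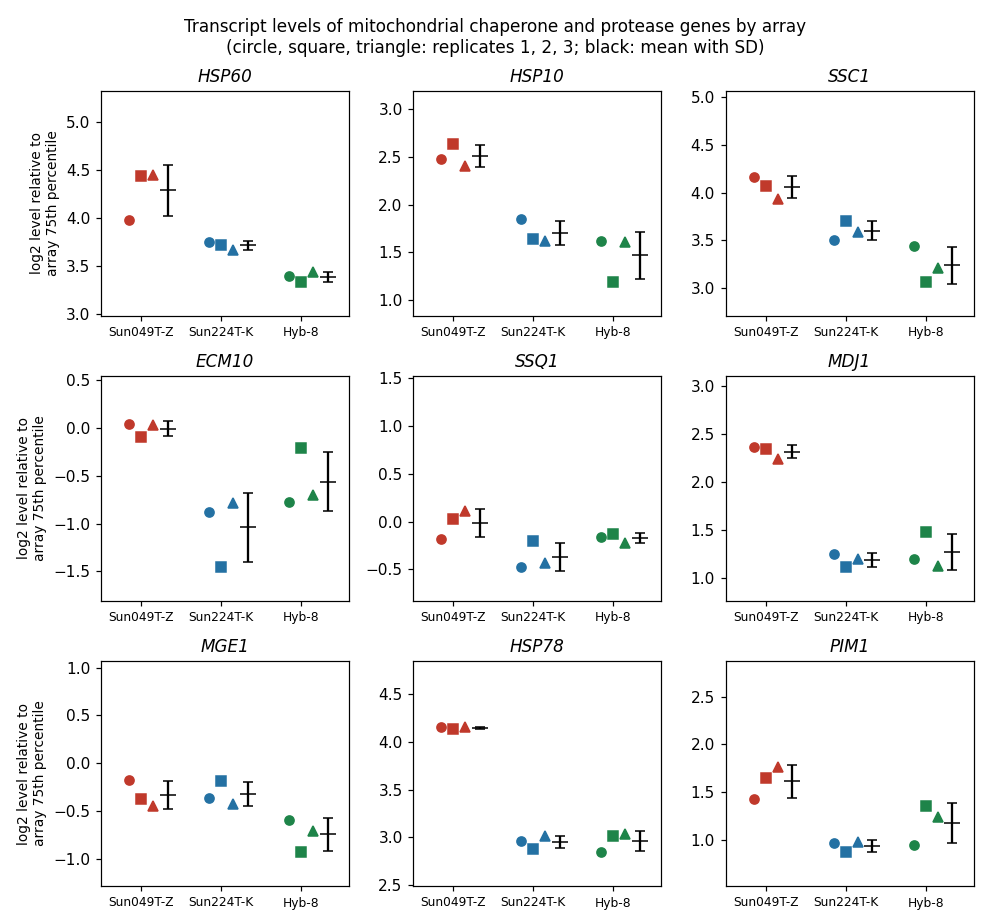
Log2 level of each member relative to the 75th percentile of the array (y axis, the same span in each panel) on the 3 arrays of each strain, with symbols for replicates 1 to 3 and the mean with its SD in black. HSP78 and MDJ1 sat higher on every Sun049T-Z array than on any array of the other strains, whereas MGE1 overlapped between the parental strains.

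HSP60 (YLR259C, chromosome XII) encodes the chaperonin ring. Its log2 level was 3.97, 4.44 and 4.45 on Sun049T-Z replicates 1, 2 and 3, 3.75, 3.72 and 3.67 on those of Sun224T-K, and 3.40, 3.33 and 3.43 on those of Hyb-8. The 3 strains did not overlap, and their order was Sun049T-Z, Sun224T-K and Hyb-8 from high to low. The low value of Sun049T-Z replicate 1 came from 1 spot at 1.80, while the other 6 spots of the probe lay between 4.03 and 4.58. In Hyb-8 HSP60 was 1.87-fold lower than in Sun049T-Z (log2 difference -0.90, SE 0.13, adjusted p = 0.000389 from limma), and in Sun224T-K it was 1.49-fold lower (-0.57, adjusted p = 0.00504). With the median in place of the mean of the spots, an alternative chosen after seeing the data, these differences were -1.04 and -0.73, the first of them past 2-fold, and without Sun049T-Z replicate 1 they were -1.06 and -0.73. Against Sun224T-K the difference of Hyb-8 was -0.33 (adjusted p = 0.19), and without Sun049T-Z replicate 1 in the fit the same difference of -0.33 passed (adjusted p = 0.0469 from limma).

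HSP10 (YOR020C, chromosome XV) encodes the lid of the chaperonin. Its log2 level was 2.48, 2.63 and 2.41 in Sun049T-Z, 1.85, 1.64 and 1.62 in Sun224T-K, and 1.62, 1.19 and 1.60 in Hyb-8, in the order of the replicates. Sun049T-Z lay above both other strains, and the gap between the lowest Sun224T-K array and the highest Hyb-8 array was narrow and closed with the median of the spots. HSP10 was 2.05-fold lower in Hyb-8 than in Sun049T-Z (log2 difference -1.04, SE 0.14, adjusted p = 0.000225 from limma), and 1.75-fold lower in Sun224T-K (-0.80, adjusted p = 0.000998). The 2-fold call in Hyb-8 lay close to the threshold and was lost without Hyb-8 replicate 2 (-0.90) or Sun049T-Z replicate 2 (-0.97), and also with a fixed slide block (-0.91), a normexp background (-0.99) or the median of the spots (-0.99), although HSP10 still passed. The log2 ratio of HSP10 to HSP60 overlapped in all 3 comparisons, so the chaperonin and its lid were not separated from each other in these arrays.

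SSC1 (YJR045C, chromosome X) encodes the main Hsp70 of the matrix. Its log2 level was 4.17, 4.07 and 3.94 in Sun049T-Z, 3.51, 3.71 and 3.59 in Sun224T-K, and 3.44, 3.06 and 3.21 in Hyb-8. The strains did not overlap and had the same order as for HSP60. SSC1 fell by 0.82 on the log2 scale in Hyb-8 relative to Sun049T-Z (SE 0.12, adjusted p = 0.000439 from limma) and by 0.46 in Sun224T-K (adjusted p = 0.011). Between Hyb-8 and Sun224T-K the difference was -0.36 (adjusted p = 0.129).

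ECM10 (YEL030W, chromosome V), the relative of SSC1, had a log2 level of 0.04, -0.09 and 0.03 in Sun049T-Z, -0.88, -1.46 and -0.78 in Sun224T-K, and -0.77, -0.21 and -0.70 in Hyb-8. Both other strains lay below Sun049T-Z, but the SDs of 0.36 in Sun224T-K and 0.31 in Hyb-8 were the highest of any member in these strains. ECM10 was 2.05-fold lower in Sun224T-K than in Sun049T-Z (log2 difference -1.03, SE 0.20, adjusted p = 0.0018 from limma), and it still passed but was no longer 2-fold without Sun224T-K replicate 2 (-0.83), with a fixed slide block (-0.97) or with a normexp background (-0.94). Its difference of -0.56 in Hyb-8 relative to Sun049T-Z passed narrowly (adjusted p = 0.0389). That call was lost when any of the 3 Sun049T-Z arrays was left out (adjusted p = 0.0788, 0.0629 and 0.0861 without replicates 1, 2 and 3) and without Hyb-8 replicate 1 or 3 (0.127 and 0.12). Relative to Sun224T-K the value was 0.48 higher (adjusted p = 0.198), the opposite sign to SSC1. Because ECM10 and SSC1 are close paralogs and the probe sequences were not used here, the ECM10 values are uncertain.

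SSQ1 (YLR369W, chromosome XII), the Hsp70 of iron-sulfur cluster transfer, differed least between Hyb-8 and Sun049T-Z. Its log2 level was -0.18, 0.02 and 0.11 in Sun049T-Z, -0.48, -0.21 and -0.44 in Sun224T-K, and -0.17, -0.13 and -0.22 in Hyb-8. Hyb-8 overlapped with both parental strains. The difference of Hyb-8 from Sun049T-Z was -0.16 (95% confidence interval -0.42 to 0.10, adjusted p = 0.271 from limma) and that from Sun224T-K was 0.20 (-0.06 to 0.46, adjusted p = 0.348). SSQ1 fell by 0.36 in Sun224T-K relative to Sun049T-Z (adjusted p = 0.0237). This call was lost without Sun049T-Z replicate 2 or 3 (adjusted p = 0.0722 and 0.0902) or Sun224T-K replicate 1 or 3 (0.0812 and 0.078), and the parental strains overlapped with the median of the spots.

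MDJ1 (YFL016C, chromosome VI) encodes the J-protein that stimulates the ATPase of Ssc1. Its log2 level was 2.37, 2.34 and 2.24 in Sun049T-Z, 1.25, 1.11 and 1.19 in Sun224T-K, and 1.20, 1.48 and 1.12 in Hyb-8. Sun049T-Z stood apart from the other strains, which overlapped. MDJ1 was 2.07-fold lower in Hyb-8 than in Sun049T-Z (log2 difference -1.05, SE 0.12, adjusted p = 6.26e-05 from limma) and 2.19-fold lower in Sun224T-K (-1.13, adjusted p = 3.81e-05). Without Hyb-8 replicate 3 the first of these was -0.98, which passed but was no longer 2-fold. Hyb-8 and Sun224T-K differed by 0.08 (adjusted p = 0.729), and by -0.03 without Hyb-8 replicate 2.

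MGE1 (YOR232W, chromosome XV), the nucleotide exchange factor of the matrix Hsp70s, was the member whose parental strains had nearly the same mean. Its log2 level was -0.17, -0.37 and -0.45 in Sun049T-Z, -0.36, -0.18 and -0.43 in Sun224T-K, and -0.59, -0.93 and -0.71 in Hyb-8. Every Hyb-8 array lay below every array of the parental strains. The parental strains differed by 0.01 (95% confidence interval -0.28 to 0.30, adjusted p = 0.958 from limma), a value whose sign changed with the scaling. In Hyb-8 MGE1 fell by 0.41 relative to Sun049T-Z (SE 0.13, adjusted p = 0.021 from limma). The difference from Sun224T-K was -0.42 and did not pass (adjusted p = 0.0902). The first call was lost without Sun049T-Z replicate 1 (-0.33, adjusted p = 0.0563) or Hyb-8 replicate 2 (-0.32, adjusted p = 0.0682), and with the slide as a fixed block (-0.24, adjusted p = 0.0985).

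HSP78 (YDR258C, chromosome IV), the disaggregase, had the lowest log2 difference of the members in both comparisons with Sun049T-Z. Its log2 level was 4.16, 4.14 and 4.15 in Sun049T-Z, 2.96, 2.88 and 3.02 in Sun224T-K, and 2.84, 3.02 and 3.03 in Hyb-8. The Sun049T-Z replicates lay within an SD of 0.01, far above both other strains, which overlapped. HSP78 was 2.27-fold lower in Hyb-8 (log2 difference -1.18, SE 0.10, adjusted p = 9.74e-06 from limma) and 2.29-fold lower in Sun224T-K (-1.20, adjusted p = 8.9e-06). Between Hyb-8 and Sun224T-K the difference was 0.01, with a 95% confidence interval from -0.20 to 0.23 (adjusted p = 0.957), and its sign changed with the normalization.

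PIM1 (YBL022C, chromosome II), the Lon protease, had a log2 level of 1.43, 1.65 and 1.77 in Sun049T-Z, 0.97, 0.87 and 0.98 in Sun224T-K, and 0.95, 1.36 and 1.24 in Hyb-8. Sun049T-Z was highest, and Hyb-8 overlapped with Sun224T-K. PIM1 was 1.60-fold lower in Sun224T-K than in Sun049T-Z (log2 difference -0.68, adjusted p = 0.00202 from limma) and 1.35-fold lower in Hyb-8 (-0.43, SE 0.13, adjusted p = 0.0202). The call in Hyb-8 was lost without Sun049T-Z replicate 2 or 3 (adjusted p = 0.0592 and 0.0763) or Hyb-8 replicate 1 (0.0707), and the 2 strains overlapped with the median of the spots. Relative to Sun224T-K the value was 0.24 higher in Hyb-8 (adjusted p = 0.327).

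**Figure D2:**
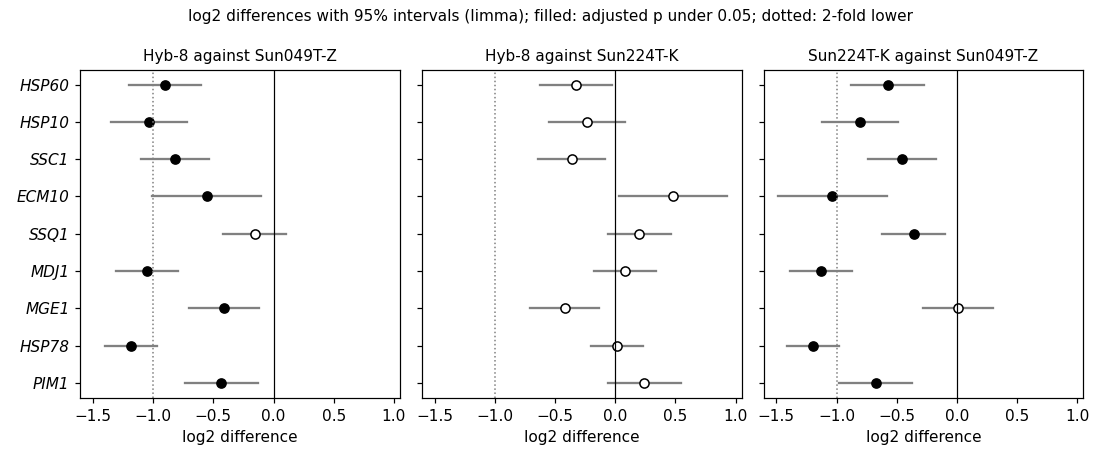
Log2 difference (x axis) of each member (y axis) with its 95% confidence interval from limma, in the 3 comparisons; filled points passed at an adjusted p under 0.05 and the dotted line marks 2-fold lower. Filled points lie left of 0 for 8 members in each comparison with Sun049T-Z, and no point is filled between Hyb-8 and Sun224T-K.

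Without Sun049T-Z replicate 1, 6 members fell in Hyb-8 and 8 in Sun224T-K relative to Sun049T-Z, and HSP60 alone fell in Hyb-8 relative to Sun224T-K. Of the 5947 probes tested, 1642, 1704 and 232 passed as lower in these 3 comparisons. Hyb-8 replicate 2, alone on its slide, had the lowest Hyb-8 level of HSP60, HSP10, SSC1 and MGE1 and the highest of ECM10, SSQ1, MDJ1 and PIM1. Without it the differences of Hyb-8 from Sun224T-K were -0.30 for HSP60, -0.09 for HSP10, -0.27 for SSC1, -0.33 for MGE1 and 0.30 for ECM10. Within the slides that held all strains, the difference of Hyb-8 from Sun049T-Z was below 0 for every member, from -1.29 to -0.19 on slide 2 and from -1.12 to -0.26 on slide 3. That of Sun224T-K from Sun049T-Z was below 0 for the 8 members other than MGE1, from -1.21 to -0.37 on slide 2 and from -1.14 to -0.35 on slide 3. In Hyb-8 ECM10 was 0.40 above Sun224T-K on slide 2 and 0.08 above it on slide 3.

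**Figure D3:**
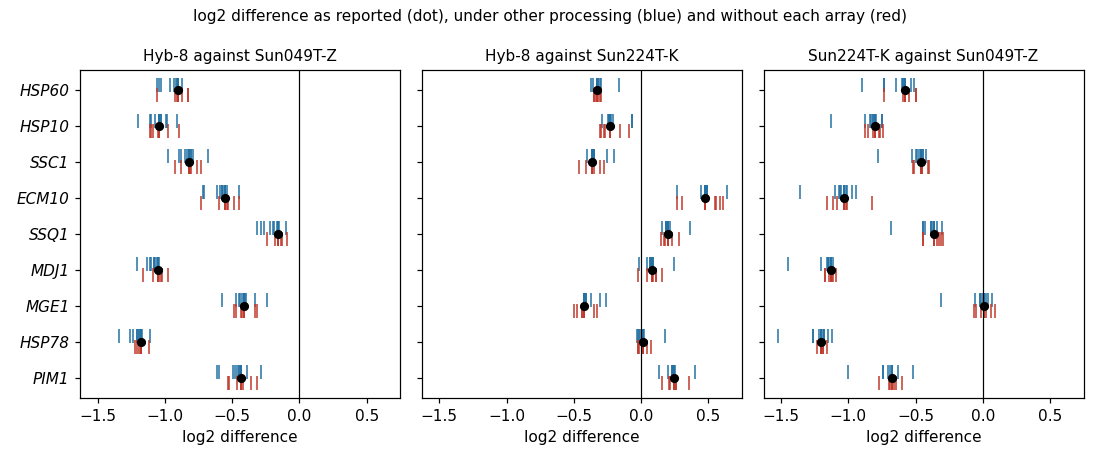
Log2 difference (x axis) of each member (y axis) as reported (black dot), under each other processing (blue ticks) and without each array (red ticks). The ticks of HSP78 and MDJ1 stay left of 0 in both comparisons with Sun049T-Z, and those of HSP78 lie on both sides of 0 between Hyb-8 and Sun224T-K.

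Since partners act together, the log2 ratio of 2 members within an array was compared for 6 pairs, chosen after seeing the data. None of the 18 comparisons passed. An exact two-sided permutation test of 3 arrays against 3 cannot go below p = 0.1 (adjusted p = 0.164). The 11 comparisons in which the strains did not overlap reached this floor, and in the rest the strains overlapped. Other pairs of genes were not computed, so the ratios are given as a description only. The ratio of MDJ1 to SSC1 was 0.67 lower in Sun224T-K than in Sun049T-Z, and in Hyb-8 it was 0.44 above Sun224T-K. Hyb-8 and Sun049T-Z overlapped in this ratio. MGE1 to SSC1 was 0.41 higher in Hyb-8 and 0.47 higher in Sun224T-K than in Sun049T-Z, whereas Hyb-8 and Sun224T-K overlapped. The protease relative to the disaggregase, PIM1 to HSP78, was 0.75 higher in Hyb-8 and 0.52 higher in Sun224T-K than in Sun049T-Z. In Hyb-8 the ratio of SSQ1 to SSC1 was 0.66 above Sun049T-Z and 0.56 above Sun224T-K, while the parental strains overlapped.

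Across the 9 arrays, the level of HSP78 was most like that of HSP82, the cytosolic Hsp90 (Pearson's r = 0.997), followed by YGR210C and YHL042W. MDJ1 was most like HSP42, a cytosolic small heat shock protein (r = 0.996), and then ZRT2 and PAU2. HSP60 was most like PET117, a cytochrome oxidase assembly factor (r = 0.994), and MGE1 was most like YAH1, the mitochondrial ferredoxin (r = 0.96), and TOM40, the pore of the outer membrane translocase. HSP10 was nearest to MRPL28, SSC1 to SSH4, SSQ1 to CMR1 and PIM1 to YML083C, with r between 0.965 and 0.987. Within the group, MDJ1 and HSP78 had the highest r (0.981) and ECM10 and MGE1 the lowest (-0.17). The 9 arrays are 3 strains, so these correlations follow mainly the 3 strain means and carry no test.

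Other genes around the matrix folding machinery were counted in the same fit. The counts stand beside the shares of all probes that passed. These were 27.3% lower and 28.7% higher in Hyb-8 relative to Sun049T-Z, and 29.1% each way in Sun224T-K. Between Hyb-8 and Sun224T-K they were 2.46% lower and 3.03% higher. Among 15 other mitochondrial proteases and processing peptidases, 6 fell and 2 rose in Hyb-8 relative to Sun049T-Z, 7 fell and 3 rose in Sun224T-K, and none passed between Hyb-8 and Sun224T-K. CYM1, the presequence-degrading peptidase, was 2.07-fold lower in Hyb-8 relative to Sun049T-Z (limma adjusted p = 3.75e-05). AFG3, a subunit of the matrix-facing AAA protease of the inner membrane, was 1.95-fold lower (adjusted p = 0.000311), and OMA1, another inner membrane protease, was 1.79-fold lower (adjusted p = 0.000258). SOM1, a subunit of the inner membrane peptidase, rose instead, 2.44-fold in Hyb-8 and 2.18-fold in Sun224T-K, whereas the catalytic subunits IMP1 and IMP2 fell 1.78-fold and 1.59-fold in Hyb-8 and 1.81-fold and 1.84-fold in Sun224T-K. The proteases thus moved in both directions, with medians of -0.31 in Hyb-8 and -0.21 in Sun224T-K relative to Sun049T-Z. Without Sun049T-Z replicate 1 the median in Hyb-8 was -0.52 with 8 genes lower and 2 higher, that in Sun224T-K was -0.23 with 7 lower and 2 higher, and 1 gene passed as lower between Hyb-8 and Sun224T-K.

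The genes that passed in the presequence translocase and import motor, through which Ssc1 acts, showed no common direction. Of the 9 genes in this list 2 rose and 2 fell in either strain relative to Sun049T-Z, and none passed between Hyb-8 and Sun224T-K. Relative to Sun049T-Z, 7 were below 0 in Hyb-8 (median -0.24) and 4 in Sun224T-K (median 0.03). Relative to Sun224T-K, 8 were below 0 in Hyb-8 (median -0.14), as were 2847 of all 5947 probes. TIM44, which tethers Ssc1 to the channel, rose by 0.51 in Hyb-8 and 0.64 in Sun224T-K (limma, adjusted p = 0.00634 and 0.00169), while the channel gene TIM23 rose by 0.54 and 0.84. TIM50, the receptor of the translocase, fell by 0.60 and 0.51. SSC1 and TIM44 therefore passed in opposite directions in both comparisons with Sun049T-Z.

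Among 13 other folding and assembly factors, 6 fell and 2 rose in Hyb-8 relative to Sun049T-Z, and 5 fell and 4 rose in Sun224T-K. ZIM17, which keeps the matrix Hsp70s soluble, was 2.67-fold lower in Hyb-8 and 2.12-fold lower in Sun224T-K (adjusted p = 8.05e-05 and 0.000381 from limma). TIM13, a small chaperone of the intermembrane space, was 2.57-fold and 2.03-fold lower. TIM10, of the same kind, was 1.84-fold and 1.41-fold lower. TIM9, also of this kind, went the other way, 1.81-fold and 1.92-fold higher (adjusted p = 0.00313 and 0.00179 from limma). Between Hyb-8 and Sun224T-K, 3 genes fell and 1 rose, while 12 of the 13 were below 0, with a median of -0.31. CPR3, the matrix cyclophilin, fell 1.77-fold (adjusted p = 0.00162), and ATP11 and ATP12, which chaperone subunits of the ATP synthase, fell 1.39-fold and 1.46-fold. MDJ2, a J-protein of the inner membrane, rose 1.43-fold (adjusted p = 0.035).

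Of 12 genes of iron-sulfur cluster assembly, the pathway in which Ssq1 works, 6 fell in Hyb-8 and 4 in Sun224T-K relative to Sun049T-Z, and none rose. JAC1, the J-protein partner of Ssq1, was 2.15-fold lower in Hyb-8 (adjusted p = 8.19e-05 from limma) and 1.71-fold lower in Sun224T-K. GRX5, the glutaredoxin that receives the cluster, was 2.80-fold and 2.42-fold lower. YFH1, the yeast frataxin, was the gene that fell in Hyb-8 relative to Sun224T-K (log2 difference -0.89, adjusted p = 0.00521). SSQ1 itself did not pass in either comparison of Hyb-8, whereas JAC1 and GRX5 passed relative to Sun049T-Z; the difference between these genes was not tested.

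Cytosolic heat shock chaperones were, like the members, mostly lower in both other strains than in Sun049T-Z. Of 17 genes, 14 fell in Hyb-8 and 15 in Sun224T-K relative to Sun049T-Z, with medians of -1.14 and -1.20, and none passed between Hyb-8 and Sun224T-K. HSP82 was 3.52-fold lower in Hyb-8 and 3.74-fold lower in Sun224T-K (adjusted p = 7.07e-07 and 5.89e-07 from limma). SSA3, an inducible Hsp70, was 3.90-fold and 4.53-fold lower. Nuclear-encoded respiratory chain subunits were counted as a further list of genes for mitochondrial proteins. Of 22 genes, 9 fell and 3 rose in Hyb-8 relative to Sun049T-Z, while 2 fell and 6 rose in Sun224T-K. Their medians were -0.34 and 0.26. Relative to Sun224T-K, 8 fell in Hyb-8 and none rose, where 2.46% of all probes passed as lower. The median of the 22 genes was -0.55, and 20 of them were below 0. SDH2, a subunit of succinate dehydrogenase, fell 2.30-fold (adjusted p = 0.00596 from limma). COR1, a core subunit of the cytochrome bc1 complex, fell 1.82-fold. Whether the strains differed in mitochondrial mass was not tested. Without Sun049T-Z replicate 1, 16 cytosolic chaperone genes fell in each comparison with Sun049T-Z, and 10 respiratory genes fell in Hyb-8 relative to Sun224T-K.

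**Figure D4:**
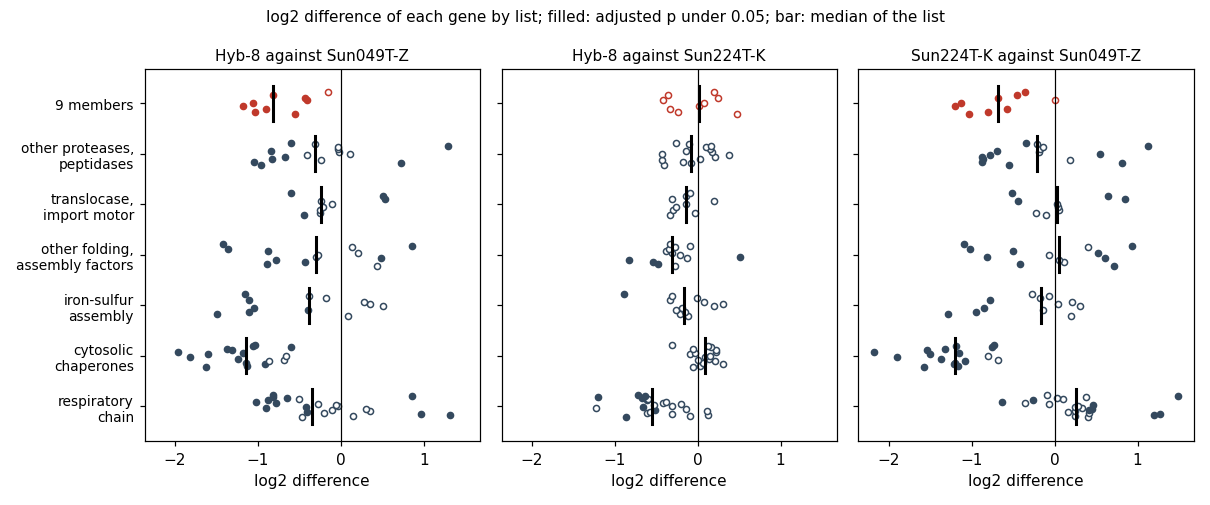
Log2 difference (x axis) of each gene, by list (rows), in the 3 comparisons; filled points passed at an adjusted p under 0.05 and the bar is the median of the list. The members (red), except MGE1 in Sun224T-K, and the cytosolic chaperones lie left of 0 in both comparisons with Sun049T-Z, with medians of -0.82 and -1.14 in Hyb-8, while the translocase spans 0.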

How the data were processed

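Transcripts of 3 yeast strains were measured on 9 1-colour arrays. The authors deposited the scanner output (Agilent Feature Extraction 10.1.1.1, from the submitters' processing notes), whose spot values are background-subtracted intensities on a linear scale. A second table that the authors deposited, in log2 units, matched these intensities once each array was shifted to its 75th percentile and each probe centred on its median. It served as an alternative.

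In R 4.3.3, spots were dropped if they were controls or had an outlier flag. Each intensity was put on the log2 scale relative to the array's 75th percentile, and the 7 spots per probe were averaged. A probe entered the test if some strain had it well above background on each of its 3 arrays (5947 did, 309 did not). Names came from systematic names, of which 5756 matched a reference gene table and 500 kept the name in the files. Tests used limma 3.58.1 (lmFit and eBayes), with strain as the only term. The test was checked on simulated data, in which the noise was independent and a probe had the same SD on all arrays. That check does not cover an array of wider spread, such as Sun049T-Z replicate 1, or the slides. The number of arrays limits the precision.

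The members and the lists of other genes were chosen with earlier results of these data known. From each list, at most 4 genes per comparison were named, those that passed with the largest absolute log2 difference, and for each member the 3 genes of most similar level (those of ECM10 are not reported here). Alternatives concerned background correction, normalization, spots, filters, the moderated test, blocks and each array left out. For the normexp background, with an offset of 50, the median spot signal was used because the mean was not in the columns used here.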

Additional observations from a re-analysis of the deposited data

How the results depend on the processing

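For HSP60, HSP10, SSC1, MDJ1 and HSP78, the direction and the side of the threshold in both comparisons with Sun049T-Z held under all 24 alternatives, with log2 differences of Hyb-8 between -1.06 and -0.82, -1.20 and -0.90, -0.98 and -0.68, -1.21 and -0.98, and -1.34 and -1.11. ECM10, MGE1 and PIM1 were weaker: with a normexp background their differences of Hyb-8 from Sun049T-Z were -0.45, -0.33 and -0.29 (adjusted p = 0.084, 0.055 and 0.255), which left 5 members passing. With normexp, 1411 of the 5947 probes tested passed as lower in this comparison. SSQ1 between the parental strains was lost with outlier spots kept (adjusted p = 0.0886). At a fold threshold of 1.5, 5 members were called in Hyb-8 and 5 in Sun224T-K relative to Sun049T-Z. Under the other alternatives 2 to 4 were called in each. The share of all probes called was not computed under these settings, so these counts have no background beside them. Without single arrays, 0 to 1 members passed between Hyb-8 and Sun224T-K, the 1 being HSP60 without Sun049T-Z replicate 1.

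Values near 0 changed sign. HSP78 in Hyb-8 relative to Sun224T-K was -0.00815 with a normexp background, -0.0242 with quantile normalization, -0.0309 with a fixed slide block, -0.0149 with the median of the spots, and -0.0222 to 0.0736 without single arrays. MDJ1 was -0.0179 with the slide block and -0.0261 to 0.152 without single arrays. MGE1 between the parental strains was -0.00586 with quantile normalization, -0.0593 with a median shift, -0.313 scaled to ACT1, -0.0195 with the authors' processed values, -0.0213 with outlier spots kept, and -0.0618 to 0.0889 without single arrays. Scaling to ACT1 and the median shift move all probes of an array alike. Under them the median of all probes between the parental strains was -0.321 and -0.068. The cause of the other changes of sign was not tested.

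Scaling to ACT1 moved the median of all probes to -0.13 (Hyb-8 against Sun049T-Z), 0.17 (Hyb-8 against Sun224T-K) and -0.32 (between the parental strains), and the share of higher genes among those passing from 51.3%, 55.2% and 50.0% to 36.9%, 87.3% and 24.5%. Such a scaling shifts all probes of an array alike, so the median of the members relative to all probes (-0.85, 0.00 and -0.68) cannot move with it. With normexp it was -0.90, -0.07 and -0.45, and with a fixed slide block -0.71, -0.04 and -0.73. Over all probes, 180 rose and 146 fell in Hyb-8 relative to Sun224T-K, against 84 and 66 with the replicate block, 81 and 70 with a fixed slide block, 95 and 65 with normexp, 250 and 227 with the median of the spots, and 316 and 46 scaled to ACT1. Without single arrays these counts ran from 43 and 33 (without Hyb-8 replicate 3) to 256 and 232 (without Sun049T-Z replicate 1), with 54 and 38 without Sun224T-K replicate 3.

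Nothing in the labels ties arrays with the same replicate number to each other, and the correlation of their deviations from the strain means ran from -0.25 to 0.15. With the replicate block 7 members fell in Hyb-8 and 8 in Sun224T-K relative to Sun049T-Z, where ECM10 in Hyb-8 did not pass (adjusted p = 0.0705). No other call of a member changed under this block.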
